A study of Rattus norvegicus with 7 samples.

Results

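The genes examined here make, sense, move and clear cholesterol, and 31 of them were listed by symbol, from the mevalonate pathway to the brain's cholesterol 24-hydroxylase. By that symbol, 29 were found in the hippocampus table and 28 in the hypothalamus table, and 27 entered the comparison of the tissues, out of 10736 genes compared in all. All 7 libraries came from male Sprague Dawley rats that were 2 months old when they started a 6-week omega-3 diet with docosahexaenoic acid (DHA), 4 of hippocampus and 3 of hypothalamus. No library from chow-fed rats is used here, which leaves the effect of DHA unmeasured, and every group shares the diet, the sex and the strain. The labels do not say whether a hippocampus and a hypothalamus came from the same rat. RNA was poly-A selected and sequenced, and the deposited values are FPKM, that is fragments per kilobase of transcript scaled to the library's fragments, which allow levels of different genes to be compared per length.

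Neurons and glia cannot take up cholesterol from plasma lipoproteins across the blood-brain barrier, so the brain makes its own. Acetyl-CoA is turned into mevalonate and then farnesyl pyrophosphate, squalene synthase and squalene epoxidase lead to lanosterol, and a last series of enzymes converts lanosterol to cholesterol. When sterols in the endoplasmic reticulum are low, the escort SCAP carries the transcription factor SREBP-2, encoded by Srebf2, to the Golgi for cleavage, and the INSIG proteins hold it back when sterols are high. Astrocytes export cholesterol on apolipoprotein E through ABC transporters, and neurons clear the excess as 24-hydroxycholesterol made by Cyp46a1.

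Promoter sequences of 26 of the 31 genes were found in RefSeq's annotation of the assembly GRCr8, as 250 bases before and 50 after each gene's start. The 210 bases before the start are shown for 7 genes on which the results below turn: Hmgcs1, Idi1 and Insig1, which were high in 1 hypothalamus library, and Mvd, Fdps, Tm7sf2 and Srebf2, which separated the tissues. Each reads 5′ to 3′ on the gene's strand, and capitals mark the NF-Y box (CCAAT) and the Sp1 box (GGGCGG) on either strand. NF-Y and Sp1 are known partners of SREBP at sterol-regulated promoters.
Hmgcs1 (chr2:53382094-53382303, plus strand): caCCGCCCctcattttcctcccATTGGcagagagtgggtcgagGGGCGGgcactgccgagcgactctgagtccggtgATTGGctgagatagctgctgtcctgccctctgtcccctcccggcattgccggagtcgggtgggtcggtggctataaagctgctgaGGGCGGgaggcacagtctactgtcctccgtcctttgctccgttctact
Idi1 (chr17:66547525-66547734, minus strand): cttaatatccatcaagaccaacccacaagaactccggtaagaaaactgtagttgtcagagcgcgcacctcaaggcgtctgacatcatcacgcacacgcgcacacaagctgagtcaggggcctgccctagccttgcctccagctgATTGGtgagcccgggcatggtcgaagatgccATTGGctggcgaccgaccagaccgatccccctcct
Insig1 (chr4:8057770-8057979, minus strand): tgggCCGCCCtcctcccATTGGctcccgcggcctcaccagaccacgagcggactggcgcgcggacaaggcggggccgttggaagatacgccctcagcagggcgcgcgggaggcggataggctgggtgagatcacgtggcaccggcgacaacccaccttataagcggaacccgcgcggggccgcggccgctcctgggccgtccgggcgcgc
Mvd (chr19:67414975-67415184, minus strand): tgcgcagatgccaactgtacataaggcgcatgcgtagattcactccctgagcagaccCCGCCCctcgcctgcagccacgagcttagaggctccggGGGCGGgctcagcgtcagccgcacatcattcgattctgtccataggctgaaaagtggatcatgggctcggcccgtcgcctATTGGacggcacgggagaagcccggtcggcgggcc
Fdps (chr2:176804817-176805026, minus strand): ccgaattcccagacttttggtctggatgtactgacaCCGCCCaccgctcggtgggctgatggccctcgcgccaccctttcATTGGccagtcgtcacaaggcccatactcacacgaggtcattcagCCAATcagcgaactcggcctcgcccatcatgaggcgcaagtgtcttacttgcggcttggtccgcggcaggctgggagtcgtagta
Tm7sf2 (chr1:212789542-212789751, minus strand): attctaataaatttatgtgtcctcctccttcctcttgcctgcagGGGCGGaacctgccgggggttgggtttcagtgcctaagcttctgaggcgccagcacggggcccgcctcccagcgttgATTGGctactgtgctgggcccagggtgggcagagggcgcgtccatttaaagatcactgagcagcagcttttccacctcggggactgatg
Srebf2 (chr7:115543097-115543306, plus strand): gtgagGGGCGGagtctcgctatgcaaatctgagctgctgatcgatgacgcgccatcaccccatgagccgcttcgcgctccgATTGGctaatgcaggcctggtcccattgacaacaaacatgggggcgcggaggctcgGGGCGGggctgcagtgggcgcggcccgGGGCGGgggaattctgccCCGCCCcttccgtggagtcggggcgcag

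Every window shown holds an NF-Y box, and all but that of Idi1 hold a Sp1 box. In the 300-base windows, an NF-Y box was found in 20 of 26 cholesterol genes (76.9%), against 37.5% of all 33469 promoters and 36.9% of the 8318 promoters of genes compared between the tissues. A Sp1 box was found in 23 of 26 (88.5%), against 33.1% of all promoters and 62.4% of the promoters of compared genes. A window can hold both boxes, and neighbouring matches can share bases. The 26 are counted as genes and the 33469 as promoters, and a gene can have several windows, as Apoe did. The sterol response element spelled TCACNCCAC, searched on both strands, was in no window of the 26 genes and in 1.12% of all promoters. The palindrome TCACGTGA was likewise in none of the 26 and in 0.777% of all. The liver X receptor DR4 element was in none, and in 2 of all promoters (0.00598%). A match is a run of letters and not a measured binding site, and an absent match concerns these letters in this window alone.

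The dissections matched their labels. All 6 hippocampal marker genes were higher in every hippocampus library and all 8 hypothalamic ones in every hypothalamus library. Summed FPKM ranged from 370020 to 391349 in hippocampus and from 443335 to 471484 in hypothalamus, and sequencing depth is unknown. Library pairs with replicate 1 correlated less well across genes (Pearson r of log2(FPKM + 1) 0.907 to 0.939 in hippocampus, 0.936 and 0.942 in hypothalamus) than the other pairs (0.962 to 0.975, and 0.972). Over symbols with a single locus this held in hypothalamus (0.950 and 0.956, against 0.973), but in hippocampus only the pair of replicates 1 and 4 stayed lower (0.940), while the pairs of replicate 1 with 2 and 3 (0.963 and 0.967) were no lower than that of 3 and 4 (0.962). Genes are not independent replicates. The counts between tissues are therefore also given without it. Each tissue has its own table, so tissue and table cannot be told apart and no p-value is given between them. To set the tissues side by side, values were scaled so that the 15805 symbols found in both tables added up to 1000000 in every library. A gene was called higher in a tissue when all of that tissue's libraries lay above all of the other's, and folds are ratios of rescaled means. The level of a gene in a piece of tissue cannot tell fewer cells of a type from less RNA per cell.

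Of the 27 genes compared, 11 (40.7%) were higher in every hippocampus library, where 28.2% of all genes were, and 4 (14.8%) were higher in every hypothalamus library, where 24.4% of all genes were. The other 12 overlapped. When the means of log2(value + 1) also had to differ by 1 or more, that is 2-fold, 9 (33.3%) were higher in hippocampus, against 14.5% of all genes, and 3 (11.1%) in hypothalamus, against 13.4%. The 9 include Hmgcs1, whose log2 means differed by 1.04 although the ratio of its rescaled means was 1.95. In FPKM as deposited that stricter count was 4 in each tissue, against 8.64% and 16.9% of all genes, since Pmvk, Lss, Hsd17b7 and Stard4 then differed by less than 2-fold, Hmgcs1 overlapped and Fdps passed. Counted together, genes that separated the tissues made up 55.6% of the list and 52.6% of all genes, so separation as such was near the background. The median difference, hippocampus minus hypothalamus, was 0.29 over the list and 0.05 over all genes (log2). The split depended on the scaling. In FPKM as deposited, 9 were higher in hippocampus and 7 in hypothalamus, which lowered the hippocampal share of the calls from 73.3% to 56.2%, while the median over all genes shifted to -0.21 and that of the list to -0.01. All genes shifted alike: 19% of them were then higher in hippocampus and 35.2% in hypothalamus, beside 33.3% and 25.9% of the list. The list's median lay 0.23 above that of all genes after rescaling and 0.21 above it as deposited, and from 0.14 with Sc5d and Lrp1 added to 0.50 over single-locus symbols in the other settings, with 0.16 without hypothalamus replicate 3 and 0.39 without hippocampus replicate 3. Of the 15 calls, 13 held in each alternative in which the gene was compared (Fdps and Nsdhl have several loci and were not in the single-locus run, and Stard4 was not in the run with a minimum of 5 FPKM): Pmvk, Lss, Cyp51, Tm7sf2, Hsd17b7, Srebf2, Stard4, Soat1 and Abcg1 towards hippocampus, and Mvd, Fdps, Nsdhl and Apoe towards hypothalamus. Hmgcs1 and Scap overlapped under 3 of the scalings. Without replicate 1 of both tissues, the hippocampal count was 14, with Idi1, Insig2 and Npc1 added, and the hypothalamic count was 6, with Msmo1 and Dhcr7 added, while the shares of all genes rose to 40.9% and 33.2%.

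**Figure D1:**
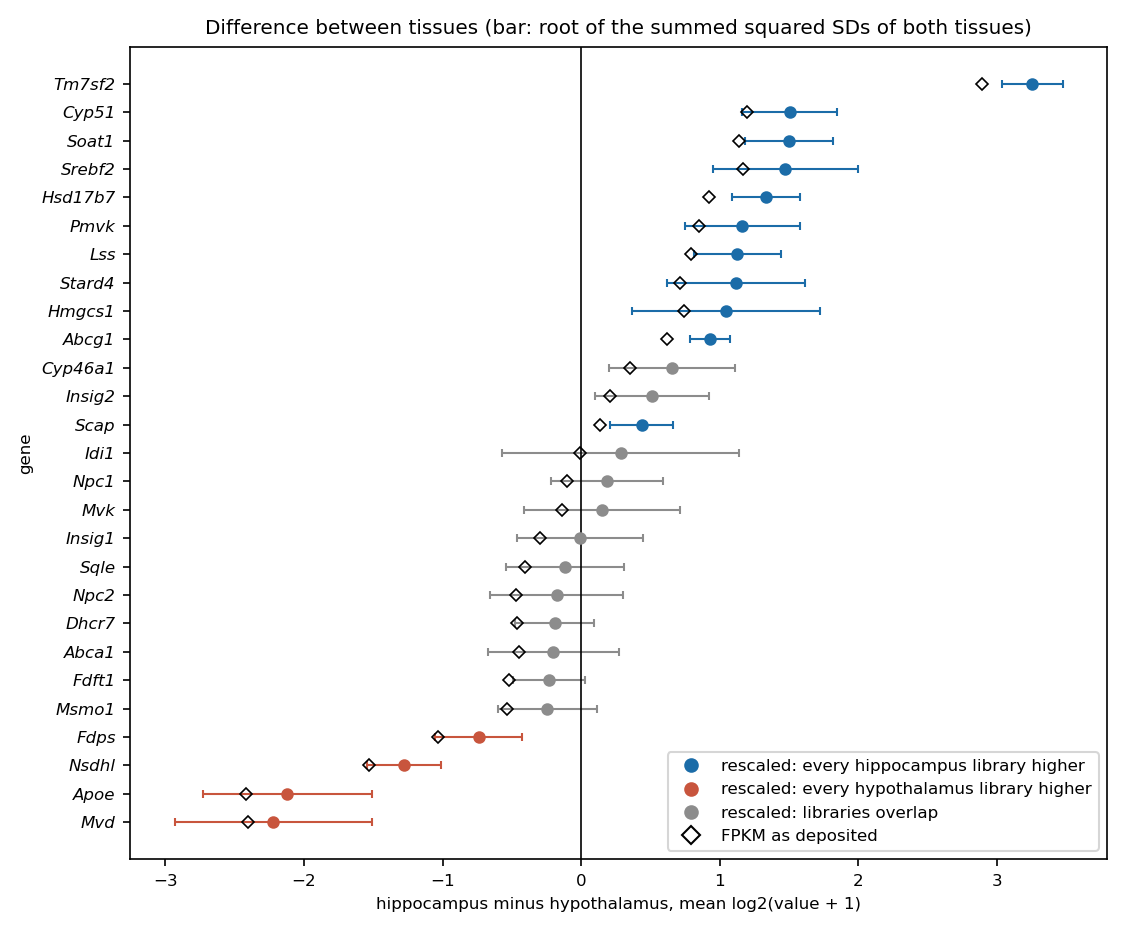
Difference between tissues for the 27 genes compared, as hippocampus minus hypothalamus of mean log2(value + 1). Filled points use rescaled values with bars for the combined SD of both tissues (n = 4 and 3), coloured by whether libraries overlap, and open diamonds use FPKM as deposited. Among the filled points, Tm7sf2 lies farthest right at 3.26 and Mvd farthest left at -2.22, and the diamonds lie to the left of the points.

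The enzymes of the mevalonate arm differed from step to step. Hmgcs1, which encodes HMG-CoA synthase, read 132, 138, 115 and 174 FPKM in hippocampus replicates 1 to 4 and 133, 67.9 and 61.2 FPKM in hypothalamus replicates 1 to 3. In rescaled values it was 1.95-fold higher in hippocampus, but hypothalamus replicate 1 reached the level of the lower hippocampus libraries, so the tissues overlapped in FPKM as deposited. Pmvk, the phosphomevalonate kinase, read 36.2, 35.25, 36.0 and 32.1 FPKM in hippocampus and 24.1, 13.6 and 20.5 FPKM in hypothalamus, 2.21-fold higher in hippocampus. The hippocampus values lay close together and all above hypothalamus.

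Mvd, which decarboxylates mevalonate pyrophosphate, went the other way. It read 12.8, 6.85, 6.04 and 3.76 FPKM in hippocampus and 35.3, 40.4 and 44.9 FPKM in hypothalamus, 4.42-fold higher in hypothalamus. Even the highest hippocampus library stood below every hypothalamus one, and the hippocampus spread (SD 0.64 on the log2 scale) was the widest of the list in that tissue. Fdps, the farnesyl pyrophosphate synthase, read 79.6, 85.6, 67.1 and 56.4 FPKM in hippocampus and 140, 130 and 174 FPKM in hypothalamus, 1.66-fold higher in hypothalamus. A further hippocampal Fdps locus stayed at or below 2.48 FPKM. Mvk, the mevalonate kinase, ranged from 17.9 to 40.7 FPKM in hippocampus and from 22.5 to 29.3 FPKM in hypothalamus and overlapped. Idi1, the isopentenyl diphosphate isomerase, also overlapped, at 15.4, 17.3, 12.4 and 24.6 FPKM in hippocampus and 30.3, 14.0 and 11.4 FPKM in hypothalamus. The symbol Acat2 had no row, but Acat3, which RefSeq lists as an older name of that cytosolic acetyl-CoA acetyltransferase, read 21.3 to 36.9 FPKM in hippocampus. That match rests on the name alone.

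Fdft1 and Sqle, the squalene synthase and squalene epoxidase, showed overlapping rescaled values. Fdft1 ranged from 31.9 to 41.8 FPKM in hippocampus and from 46.5 to 61.8 FPKM in hypothalamus, so that in FPKM as deposited it was higher in every hypothalamus library. Sqle ranged from 26.4 to 33.5 and from 33.0 to 53.8 FPKM, and a further Sqle locus was lower in both tissues. Lss, which closes squalene epoxide into lanosterol, read 15.7, 11.99, 13.0 and 10.6 FPKM in hippocampus and 7.86, 5.92 and 7.09 FPKM in hypothalamus. Every hippocampus library was higher, with a fold of 2.27.

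Beyond lanosterol, 3 of 6 compared enzymes were higher in hippocampus (28.2% of all genes) and 1 in hypothalamus (24.4%). These counts are too small to set apart from those shares. Tm7sf2, a sterol C14-reductase, had the largest difference of the list. It read 92.3, 99.5, 80.8 and 74.4 FPKM in hippocampus and 9.70, 10.3 and 12.3 FPKM in hypothalamus, 9.93-fold higher in hippocampus (SD 0.18 and 0.13 on the log2 scale). No library came near those of the other tissue, and the gene had 1 locus in each table with the same neighbouring rows. Cyp51, the lanosterol 14-demethylase that acts just before that reductase, read 92.4, 102, 84.8 and 96.2 FPKM in hippocampus and 50.9, 37.7 and 34.2 FPKM in hypothalamus, a fold of 2.81. Hsd17b7, a 3-ketosteroid reductase, was low in both tissues, at 5.24 to 6.196 FPKM in hippocampus and 2.03 to 2.68 FPKM in hypothalamus, 2.77-fold higher in hippocampus. Thus Cyp51 and Tm7sf2 stood at the 95.8th and 95.3rd percentile of hippocampal genes by level, and at the 87.3rd and 63.2nd percentile of hypothalamic genes.

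Nsdhl, a sterol dehydrogenase that removes the C4 carboxyl group, read 12.7, 16.0, 14.1 and 17.4 FPKM in hippocampus and 51.7, 42.6 and 41.9 FPKM at its higher hypothalamic locus, 2.46-fold higher in hypothalamus. That locus lay between other rows than the hippocampal one. At the hypothalamic locus with the same neighbours (26.5 to 27.9 FPKM), the libraries still did not overlap, but the difference shrank from -1.28 to -0.55 on the log2 scale and was no longer 2-fold. Nsdhl was the only one of the 27 genes for which the highest loci, those compared, shared no neighbouring row between tables.

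Msmo1, the methylsterol monooxygenase, read 106, 74.3, 71.4 and 82.1 FPKM in hippocampus and 140, 115 and 107 FPKM in hypothalamus and overlapped after rescaling. Its other hippocampal locus read 0.790, 86.2, 51.7 and 137 FPKM, with replicate 1 near 0, and with both loci summed the difference turned from -0.24 to 0.55 (log2), again with overlap. Dhcr7, which makes the final reduction to cholesterol, ranged from 9.91 to 13.6 FPKM in hippocampus and from 14.4 to 19.4 FPKM in hypothalamus and overlapped after rescaling. Sc5d was listed under its older symbol Sc5dl and stayed outside the counts, at 50.3 to 61.9 FPKM in hippocampus and 56.8 to 80.9 FPKM in hypothalamus, with overlap. Ebp, a sterol isomerase gene, was found in hippocampus alone, at 11.2, 10.4, 10.98 and 7.13 FPKM.

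**Figure D2:**
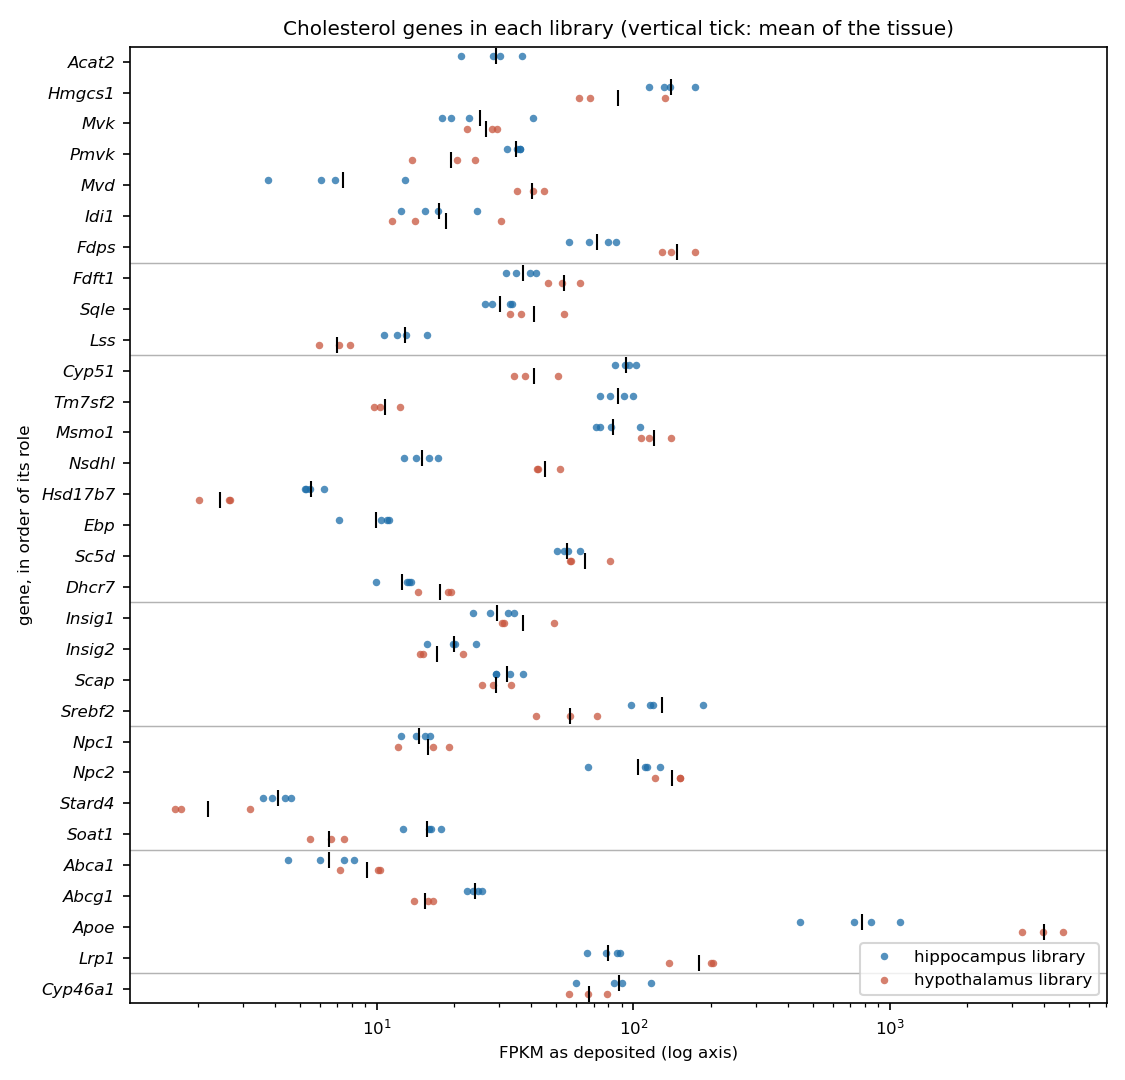
FPKM as deposited of every cholesterol gene found, on a log axis, 1 point per library (4 of hippocampus, 3 of hypothalamus) with the tissue mean as a tick. Genes are ordered by role, Acat2 is plotted from Acat3 and Sc5d from Sc5dl, and symbols with several loci show the highest. Apoe stands apart at 447 to 4725 FPKM, and the libraries of Tm7sf2, Mvd and Apoe lie far apart between the tissues.

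Among the genes of sterol sensing, the factor itself differed more than its regulators. Srebf2 read 119, 116, 97.5 and 186 FPKM in hippocampus and 41.9, 56.5 and 71.8 FPKM in hypothalamus. Every hippocampus library was higher, with a fold of 2.82. Scap ranged from 29.0 to 37.3 FPKM in hippocampus and from 25.6 to 33.3 FPKM in hypothalamus. It was 1.36-fold higher in hippocampus after rescaling and overlapped in FPKM as deposited. Insig1 read 27.6, 32.6, 23.8 and 34.1 FPKM in hippocampus and 49.0, 30.7 and 31.4 FPKM in hypothalamus, and its tissue difference was -0.01 (log2) with SDs of 0.22 and 0.40. Insig2 ranged from 15.6 to 24.3 and from 14.8 to 21.6 FPKM and overlapped.

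Of 4 transport and storage genes, 2 were higher in hippocampus, a count too small to set apart from the 28.2% of all genes. Soat1, the enzyme that esterifies cholesterol for storage, read 12.6, 15.9, 16.2 and 17.7 FPKM in hippocampus and 7.46, 6.60 and 5.48 FPKM in hypothalamus, a fold of 2.94. Stard4, a cytosolic sterol carrier, was the lowest gene of the list in hypothalamus, at 3.21, 1.72 and 1.62 FPKM, against 3.88, 4.40, 3.59 and 4.62 FPKM in hippocampus, 2.31-fold higher there. All hippocampus libraries stood above hypothalamus for both genes. Npc1 and Npc2, whose products hand cholesterol out of lysosomes, overlapped. Npc1 ranged from 12.4 to 16.2 FPKM in hippocampus and from 12.04 to 19.0 FPKM in hypothalamus, and Npc2 from 66.5 to 127 and from 122 to 152 FPKM.

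Apoe, which encodes the main apolipoprotein of brain, was the most abundant gene of the list in both tissues. It read 1092, 725, 843 and 447 FPKM in hippocampus and 4725, 3284 and 3976 FPKM in hypothalamus, 4.17-fold higher in hypothalamus. The lowest hypothalamus library lay well above the highest hippocampus library. Astrocyte markers did not share one direction: of 6, Aqp4 and Aldh1l1 were higher in every hypothalamus library, Slc1a2 in every hippocampus library, and 3 overlapped. Their summed level ranged from 1251 to 1466 FPKM in hippocampus and from 1131 to 1536 FPKM in hypothalamus. Their mean log2 level, which weights the 6 genes equally, was higher in every hypothalamus library (7.32 to 7.66) than in any hippocampus library (7.01 to 7.11) in FPKM as deposited, but overlapped after the rescaling used for the Apoe fold (8.49 to 8.91 and 8.51 to 8.60). Of 6 microglia markers, 3 were higher in hypothalamus and 1 in hippocampus. Summed, they read 127 to 174 FPKM in hippocampus and 245 to 254 FPKM in hypothalamus. Their mean log2 level after the same rescaling did not overlap (5.86 to 6.23 in hippocampus and 6.31 to 6.50 in hypothalamus). No marker of either list was at 0, and the part of these cells in the Apoe difference was not tested.

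Abcg1, a cholesterol exporter, read 25.8, 24.8, 23.7 and 22.5 FPKM in hippocampus and 16.5, 14.0 and 15.8 FPKM in hypothalamus, 1.93-fold higher in hippocampus. Abca1, which loads cholesterol onto apolipoproteins, overlapped, at 4.50 to 8.11 and 7.15 to 10.3 FPKM. Lrp1, an uptake receptor for apolipoprotein E, had a status word of FAIL in hippocampus replicate 4 and stayed outside the counts. It read 88.9, 78.0, 86.6 and 66.0 FPKM in hippocampus and 138, 201 and 204 FPKM in hypothalamus, so that every hypothalamus library was higher in rescaled values as well (-0.87 on the log2 scale).

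Cyp46a1, the neuronal enzyme that turns cholesterol into 24-hydroxycholesterol, read 117, 90.5, 84.4 and 59.6 FPKM in hippocampus and 66.6, 56.0 and 79.0 FPKM in hypothalamus. The tissues overlapped, since hippocampus replicate 4 fell within the hypothalamus range, and without that library every hippocampus value was higher. Of 5 neuron markers, 4 were higher in every hippocampus library and none in hypothalamus, with summed levels of 1462 to 2627 and 974 to 1214 FPKM. Nefl, the exception, read 0.174 FPKM in hippocampus replicate 1. After rescaling, the mean log2 level of the 5 neuron markers overlapped (8.01 to 10.05 in hippocampus and 8.59 to 8.90 in hypothalamus). Of 8 oligodendrocyte markers, 2 were higher in each tissue, and their sums ranged from 4107 to 4987 FPKM in hippocampus and from 6143 to 8062 FPKM in hypothalamus. With the 8 genes weighted equally and rescaled, their mean log2 level overlapped (9.59 to 9.74 and 9.63 to 9.96). Of 5 endothelial markers, 3 were higher in every hippocampus library and 0 in hypothalamus, with sums of 127 to 165 and 65.8 to 94.3 FPKM, and their rescaled mean log2 level did not overlap either (5.71 to 6.02 and 4.64 to 5.07). The part of these cell types in the differences of the cholesterol genes was not tested.

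A further 34 genes of sterol metabolism were listed, of which 28 could be compared. Every hippocampus library was higher for 7 of them (25%), and every hypothalamus library for 6 (21.4%), close to the shares of all genes. Those at least 2-fold higher in hippocampus included Vldlr, a lipoprotein receptor, Mylip, which marks such receptors for degradation, and Mbtps2, a protease that releases SREBP. At least 2-fold higher in hypothalamus were the apolipoprotein genes Clu and Apod, the liver X receptor gene Nr1h2 and the sterol carrier gene Stard5. Apod read 124, 101, 136 and 73.8 FPKM in hippocampus and 515, 835 and 573 FPKM in hypothalamus, a fold of 4.80. Clu ranged from 378 to 689 and from 1659 to 2155 FPKM, a fold of 2.85. As with Apoe, no hippocampus library of Clu or Apod reached the hypothalamus range.

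Variation among libraries of a tissue was ordinary in size. The median SD of log2(FPKM + 1) was 0.22 over 28 genes in hippocampus (n = 4) and 0.23 over 28 in hypothalamus (n = 3), against 0.23 and 0.25 over all genes that reached 1 FPKM on average. It ran from 0.08 for Pmvk to 0.64 for Mvd in hippocampus, and from 0.12 for Abcg1 to 0.71 for Idi1 in hypothalamus.

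The order of the hippocampus libraries was less even. Replicate 3 was the lowest library for 11 of 28 genes (39.3%), and for 15.5% of all 10309 genes. These were Hmgcs1, Idi1, Fdft1, Sqle, Cyp51, Msmo1, Dhcr7, Insig1, Scap, Srebf2 and Stard4, that is 7 synthesis enzymes, 3 sensing genes and 1 sterol carrier. With loci summed, or with libraries rescaled to the same sum, the count was 9. Replicate 4 was lowest for 12 (42.9%, all genes 36.7%), replicate 1 for 5 (17.9%, all genes 35.7%) and replicate 2 for 0 (all genes 12.1%). None of the 11 was 1.5-fold below every other library there. Cyp51 in replicate 3 was 84.8 FPKM beside 92.4 FPKM in the next library, and Dhcr7, which stood further apart, read 9.91 FPKM beside 13.1 FPKM. Replicate 3 also had the highest summed level of the choroid plexus markers (5974 FPKM, against 35.2 to 4745 FPKM) and of the meninges markers (276 FPKM, against 32.2 to 101 FPKM). Otx2, a choroid plexus marker, and Col1a2, a meninges marker, were at 0 throughout, and the part of these tissues was not tested.

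Replicate 4 was the highest hippocampus library for 11 genes (39.3%, all genes 33.1%), replicate 1 for 10 (35.7%, 30.5%), replicate 2 for 5 (17.9%, 18.1%) and replicate 3 for 2 (7.14%, 18.3%). Replicates 1 and 4 took opposite ends for several genes. Mvk and Mvd in replicate 1 were at least 1.5-fold above every other library, as were 4.91% of all genes there. Mvd, Npc2 and Apoe in replicate 4 were at least 1.5-fold below every other library (10.7% of 28, against 3.31% of all genes), while Srebf2 was at least 1.5-fold above (3.38% of all genes). Apoe, at 447 FPKM in replicate 4 and 1092 FPKM in replicate 1, and Srebf2, at 186 and 119 FPKM, thus moved in opposite directions between these libraries.

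In hypothalamus, replicate 1 was the highest library for 19 of 28 genes (67.9%), and for 44.3% of all 10757 genes. The 19 spanned synthesis (10 genes), Insig1, Insig2, Npc1, Npc2, Stard4, Soat1, Abca1, Abcg1 and Apoe. It was the lowest for Mvd, Tm7sf2, Dhcr7, Scap, Srebf2 and Lrp1 (21.4%, all genes 36%). Replicate 3 was highest for 8 (28.6%, all genes 35.4%) and lowest for 13 (46.4%, 31.6%), and replicate 2 was highest for 1 (3.57%, 20.3%) and lowest for 9 (32.1%, 32.4%). Hmgcs1, Idi1, Insig1 and Stard4 were at least 1.5-fold above both other libraries in replicate 1. That is 14.3% of 28, near the 11.1% of all genes, so a rise of this size was not particular to the list.

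The sizes in replicate 1 were nevertheless uneven along the pathway. Idi1 was 2.39-fold above the mean of the other libraries, Hmgcs1 2.07-fold, Stard4 1.92-fold, Insig1 1.58-fold, Sqle 1.55-fold, Insig2 1.44-fold and Cyp51 1.42-fold. Srebf2 was at 0.65 times the mean of the others, Lrp1 at 0.68 times, Dhcr7 at 0.75 times and Mvd at 0.83 times. Among all genes of that library, ordered by this ratio on the log2 scale, Idi1 stood at the 99.3rd percentile and Hmgcs1 at the 98.4th, but Srebf2 at the 9.41th, Lrp1 at the 11.1th, Dhcr7 at the 19.0th and Mvd at the 26.0th, which are not extreme. The median gene stood 0.04 higher in replicate 1 on the log2 scale. Since replicate 1 of hypothalamus also differs from the other libraries across all genes, this is 1 library's pattern without a replicate.

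**Figure D3:**
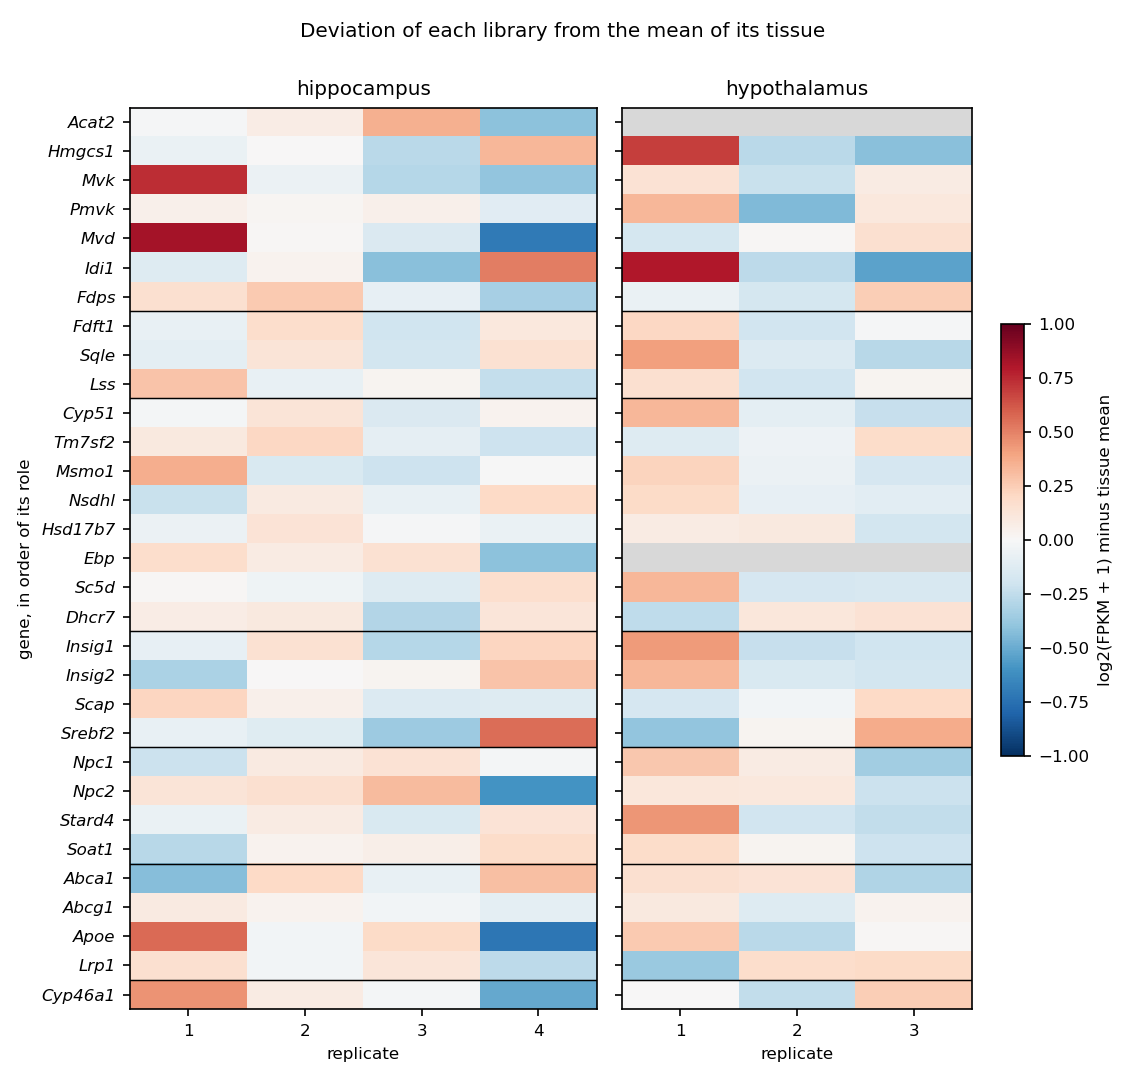
Deviation of log2(FPKM + 1) from the tissue mean for each cholesterol gene (rows, by role) and library (columns, 4 of hippocampus and 3 of hypothalamus). Red is above and blue below the mean, with colours ending at 1 in either direction, and grey marks genes not found in hypothalamus. Hypothalamus replicate 1 is red for Hmgcs1 and Idi1 and blue for Srebf2, and hippocampus replicate 4 is blue for Mvd and Apoe and red for Srebf2.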

How the data were processed

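The authors deposited FPKM in separate tables for the tissues, with a status word beside each value. The submitters' processing notes name TopHat, TopHat2, Bowtie, Bowtie2, Cufflinks and Cuffdiff and the genome build rn5. The annotation, the strand setting and the scaling between libraries are not given in the sources used here. Where strand was not used, reads of overlapping antisense genes are mixed, and symbols with several loci are uncertain.

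From these values the following was computed in Python 3.11.15 with pandas 2.3.3 and numpy 2.4.6. Where any library's status word was not OK the locus was dropped (86 in hippocampus, 24 in hypothalamus), and the locus with the highest mean was taken per symbol. Genes averaging 1 FPKM or more in either tissue entered the comparison as log2(value + 1), which understates differences of low genes. The calling script was tested on simulated data. Nothing separates animals from technical replicates beyond the labels' numbers. Depth is unknown, so no counting error was given. Alternatives were other scalings, pseudocounts of 0.1 and 5, summed loci, other filters, and libraries left out. The named genes are all listed members and those other sterol genes that separated the tissues at least 2-fold. One result is not reported here. Members and lists were chosen with earlier results of these data known, and the 1.5-fold comparison of single libraries was chosen after the values were seen.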

Additional observations from a re-analysis of the deposited data

Results flagged for a closer look

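Among 31 hippocampal values examined for a library that stands apart from the other 3, Dhcr7 did so: replicate 3 read 9.91 FPKM and the others 13.1, 13.4 and 13.6 FPKM. The gap made up 0.869 of the whole range and passed Dixon's critical ratio, where chance gives about 1.6 such values in 31.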

How the results depend on the processing

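No paired analysis was possible because these counts come from no test, and the labels do not say that same-numbered tissues came from the same rat. Leaving out 1 library at a time gave 11 to 13 genes higher in hippocampus (28.8% to 36.8% of all genes), 4 to 5 in hypothalamus (24.9% to 29.4%) and a median difference of 0.17 to 0.42 (log2). The 13 came without hypothalamus replicate 1, where the share of all genes was also highest. FPKM as deposited gave 7 higher in hypothalamus (35.2% of all genes), a median of -0.0078, and 4 at least 2-fold higher in hippocampus (8.64%). Upper-quartile scaling gave 9 and 5 (23.5% and 29.4% of all genes), with 5 at least 2-fold higher in hippocampus (10.8%), and median scaling also gave 9 and 5 (23.8% and 29.1%). Leaving out 1 library gave 7 to 9 that were at least 2-fold higher in hippocampus (13.8% to 16.9% of all genes). These runs of the 2-fold count were chosen after seeing the data. Genes with a single locus, an alternative chosen after seeing the data, gave 11 and 2 of 23 (27.1% and 25.7% of all such genes). With libraries rescaled to the same sum, hippocampus replicate 2 was lowest for 1 gene (0 before) and hypothalamus replicate 2 highest for 3 (1 before). The cause was not tested. None of the 15 differences called in the main comparison changed sign in these settings, but some that overlapped there, among them Msmo1, Idi1 and Npc1, differed in sign between settings. The unknown depth limits the genes of lowest level, Stard4 and Hsd17b7.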
